A study of Mus musculus with 10 samples.

Results

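The Slc25 genes encode the mitochondrial solute carriers, and 45 of them were found among the 18493 genes of the deposited mouse oocyte count table. They were taken as every symbol that begins with Slc25a followed by a digit, with pseudogenes left out, and were grouped by the substrate each carrier is known to move. The study compared mouse oocytes from the ovary in 3 groups: young oocytes (3 libraries, marked as control), aged oocytes (3 libraries, marked as treatment) and a spermidine group (4 libraries, marked as rescue). Its stated purpose was to look for the transcript changes behind the effect of spermidine on aged oocytes. The strain and age of the mice, the dose and route of spermidine, and how many oocytes or animals stand behind a library are not given in the sources used here. Because nothing says that libraries of a group came from separate animals, p-values measure the spread between these libraries, which may be partly technical.

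Carriers of this family are small proteins of the inner mitochondrial membrane that exchange one solute of the matrix for another outside it, or carry a solute together with a proton. They are made in the cytosol, escorted across the intermembrane space by small chaperones and inserted into the inner membrane by the TIM22 complex. Through them pass ADP and ATP, phosphate, amino acids, citrate, cofactors, iron and acylcarnitines, so they link the energy supply of the oocyte, which rests largely on mitochondria, to the rest of the cell. A few relatives work elsewhere, such as Slc25a17 in the peroxisome membrane and Slc25a46 in the outer mitochondrial membrane.

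Libraries held 24222185 to 28730790 counts and 15326 to 15711 detected genes. The Slc25 genes together had 21640 to 28227 counts per library, or 769 to 1043 CPM (counts per 1000000 counts of a library) after scaling by the trimmed mean of M values (TMM). The 10 oocyte marker genes, among them Gdf9 and Zp3, summed to 23548 to 39407 CPM, while granulosa and cumulus markers summed to 10.6 to 18.5 CPM, theca and stroma markers to 1.42 to 3.48 CPM and blood and immune markers to 0.661 to 26.6 CPM. Of these markers, Amh was at 0 in 9 libraries and Cyp17a1 never exceeded 0.0889 CPM. Others were found: Cyp19a1 at 8.81 to 16.7 CPM, Inha at 0.234 to 3.60 CPM and Cyp11a1 at 0.767 to 2.76 CPM. Fshr, a granulosa marker, stood at 0.311 to 0.646 CPM in young and 1.10 to 2.50 CPM in aged oocytes. Its log2 fold change for aged against young was 1.79 (SE 0.41, edgeR adjusted p = 0.0125). The other 2 tested granulosa and cumulus markers went the other way and did not pass. Cyp19a1 was at -0.43 (SE 0.19, edgeR adjusted p = 0.135) and Inha at -0.81 (SE 0.71, edgeR adjusted p = 0.434). Haemoglobin transcripts were found mainly in 3 libraries: young replicate 1 had 19.9 CPM, young replicate 3 had 13.6 and aged replicate 1 had 9.64, while each other library had 0.145 CPM or less. The deviation of a library from the mean of all libraries was most strongly related to transcript length in aged replicate 1 (r = 0.41 across genes, which are not independent replicates). The other libraries ran from -0.21 in young replicate 1 to 0.14 in spermidine replicate 1, the second highest value by sign. All young libraries were negative (-0.21, -0.13 and -0.10) and all aged ones positive (0.41, 0.07 and 0.04). The spermidine libraries were at 0.14, -0.10, -0.15 and -0.06. For GC content r was -0.11, 0.12 and -0.26 in young and -0.16, 0.26 and 0.38 in aged libraries. In spermidine libraries it was -0.08, -0.20, -0.10 and 0.20. Calls that change when aged replicate 1 and spermidine replicate 1 are left out are named beside the results. The part of length, GC content, blood RNA or other cells in the results was not tested beyond the settings given. In bulk samples fewer cells of a type and less RNA per cell cannot be told apart.

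Carrier transcripts were spread over several orders of magnitude when compared per length of transcript. Levels between genes are given as CPM per kilobase (kb) of the principal transcript, averaged over the 10 libraries. Slc25a5, which encodes the ADP/ATP carrier ANT2, was highest at 140.5 CPM per kb and made up 23.2% to 32.7% of the summed per-length family level of a library. Slc25a17, the peroxisomal carrier of adenine nucleotides and cofactors such as coenzyme A and NAD, followed at 80.5 CPM per kb, close to Slc25a31, the germ-cell ADP/ATP carrier ANT4, at 78.1 CPM per kb. Slc25a17 and Slc25a31 changed places between groups: Slc25a17 stood at 106 CPM per kb against 92.7 for Slc25a31 in young oocytes, and at 56.0 against 68.4 in aged oocytes, and the libraries of the 2 genes did not overlap in either group. The phosphate carrier Slc25a3 came next at 31.2 CPM per kb, ahead of the S-adenosylmethionine carrier Slc25a26 at 25.0 and the uncoupling protein relative Slc25a14 at 20.6. At the low end of the tested genes stood Slc25a24 at 0.142 and Slc25a23 at 0.0804 CPM per kb, carriers that exchange ATP-Mg for phosphate under control of calcium.

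**Figure D1:**
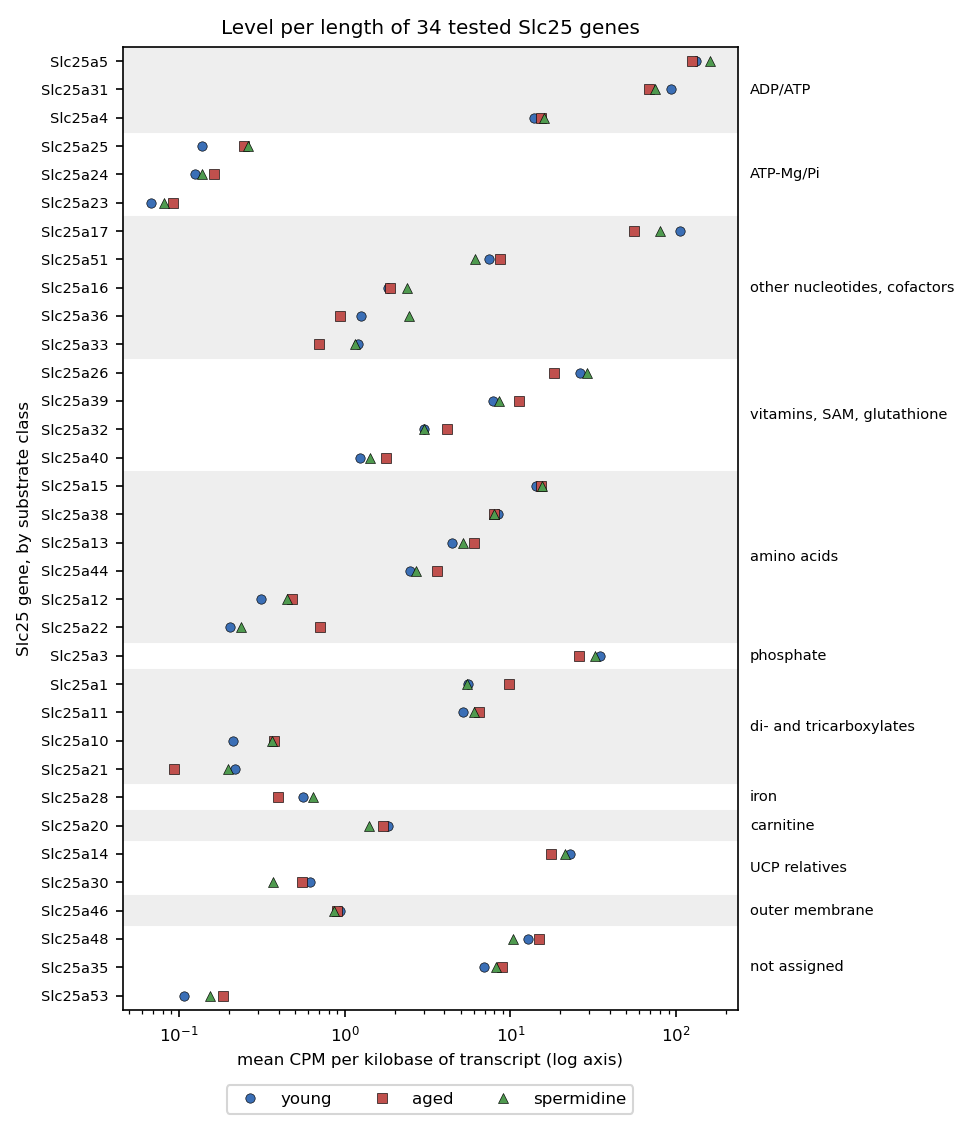
Mean level of 34 of the 35 tested Slc25 genes in CPM per kb (log axis) in young (circles), aged (squares) and spermidine (triangles) oocytes, grouped by substrate. The means range from 0.0676 CPM per kb for Slc25a23 in young oocytes to 159 CPM per kb for Slc25a5 in the spermidine group.

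Of the 45 genes, 35 had enough counts to be tested and 10 did not. The untested genes were Slc25a2, Slc25a18, Slc25a27, Slc25a29, Slc25a37, Slc25a42, Slc25a43, Slc25a45, Slc25a47 and Slc25a54. Slc25a43 had 1 count in all libraries together and Slc25a18, a mitochondrial glutamate carrier, had the most of these with 56. Slc25a37 (mitoferrin 1), the iron importer of developing red cells, had 26 counts in total. None of the 10 exceeded 0.493 CPM in a library, where 3 counts, the limit that a count of 0 allows, correspond to 0.0902 to 0.138 CPM depending on the library. Such limits cover counting error only, since amplified reads without molecular identifiers are not independent molecules.

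Few carrier genes passed the test in any comparison, and the 3 that did were Slc25a17, Slc25a22 and Slc25a36. In aged against young oocytes, 1 of 35 genes rose (Slc25a22) and 1 fell (Slc25a17) at an adjusted p under 0.05 in edgeR's quasi-likelihood test, while 9.71% of all 12315 tested genes rose and 8.06% fell. In spermidine against aged oocytes, 2 rose (Slc25a17 and Slc25a36) and 1 fell (Slc25a22), against a background of 2.42% higher and 2.44% lower. In spermidine against young oocytes, 1 rose (Slc25a36) and 0 fell, against 3.44% higher and 1.92% lower. For that last count of 0, edgeR gave 2 genes lower at an unadjusted p under 0.05 and DESeq2 gave 1 lower. The 3 comparisons share libraries, so their values are set side by side and not read as independent of each other.

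The carriers had little common shift between groups, in medians where rises and falls offset each other. The median log2 fold change of the 35 genes was 0.20 from young to aged, where that of all tested genes was 0.10, with 21 carriers above 0 and 14 below. It was -0.09 from aged to spermidine, beside -0.03 for all genes, and 0.12 from young to spermidine, beside 0.04. Scaling by total counts instead of TMM moved the median of all genes from 0.10 to 0.24 for aged against young and from 0.04 to 0.23 for spermidine against young, and the carriers' medians moved with it to 0.31 and 0.29. The young and aged libraries did not overlap for 12 of the 35 carriers, 6 higher and 6 lower, beside 40% of all tested genes. The aged and spermidine libraries did not overlap for 8 carriers, beside 19.9% of all genes, and the young and spermidine libraries for 7, beside 21%. Among the carriers that did not pass, log2 fold changes ran from -1.23 to 0.84 for aged against young, from -0.85 to 1.09 for spermidine against aged and from -0.74 to 0.91 for spermidine against young.

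**Figure D2:**
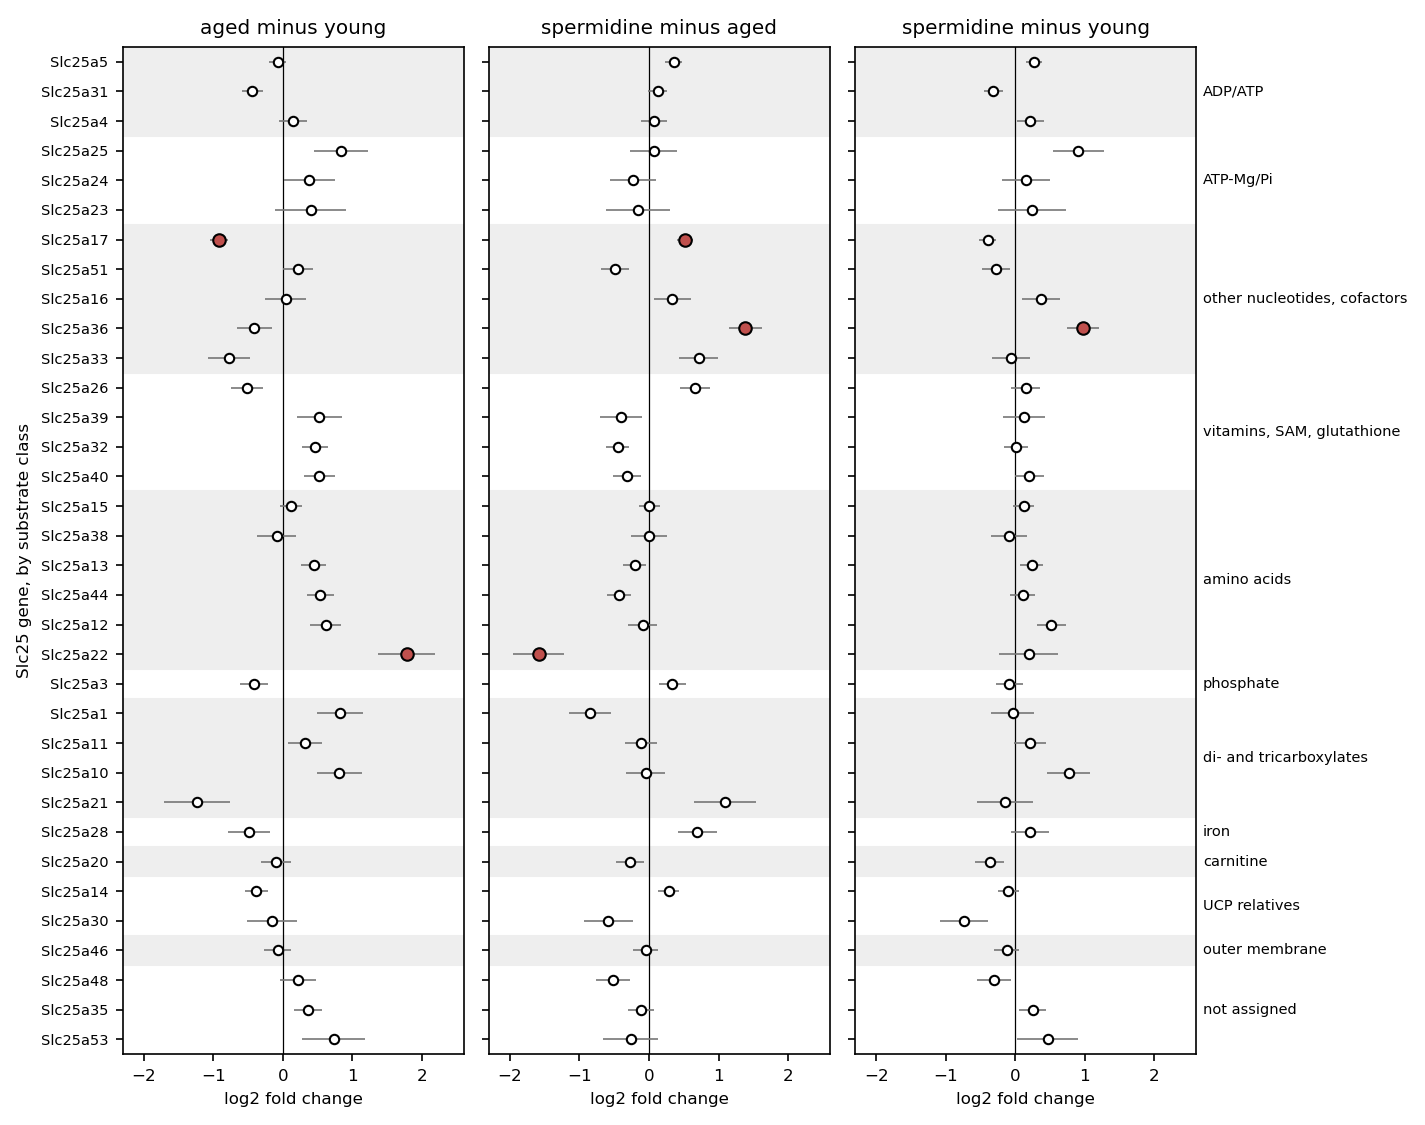
Log2 fold change of 34 of the 35 tested Slc25 genes in the 3 comparisons, with bars of 1 standard error. Filled points passed an adjusted p under 0.05 and open points did not. The filled points are Slc25a17 and Slc25a22 for aged against young, Slc25a17, Slc25a22 and Slc25a36 for spermidine against aged, and Slc25a36 for spermidine against young.

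Slc25a17 was the carrier whose change from young to aged oocytes held under every setting tried. The gene (Gene ID 20524) lies on the minus strand of chromosome 15, from 81318911 to 81360812 in GRCm38, and no other annotated gene shares its exons. Its 3 young libraries stood at 177, 191 and 179 CPM, its 3 aged libraries at 100.5, 89.0 and 100.1 CPM, and its 4 spermidine libraries at 124, 153, 144 and 131 CPM. No library of one group overlapped another group: young oocytes were highest, aged oocytes lowest and the spermidine group between them. The level fell 1.89-fold from young to aged oocytes (log2 fold change -0.92, SE 0.13, edgeR adjusted p = 0.00114), and it passed without each of the 10 libraries in turn and in 9 of 9 other settings. With a correction for transcript length and GC content the fall was smaller, -0.61 (edgeR adjusted p = 0.00603).

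In spermidine against aged oocytes Slc25a17 rose 1.43-fold (log2 fold change 0.52, SE 0.12, edgeR adjusted p = 0.0365). Leaving out any 1 of young replicates 1 and 3, aged replicates 2 and 3 or spermidine replicates 2 and 3 ended that call, with adjusted p up to 0.136, while the log2 fold change stayed between 0.45 and 0.56. It was also lost under total count scaling, with no filter on low counts, with only the compared groups in the fit and with the length and GC correction, where the value was 0.31 (edgeR adjusted p = 0.116). Without aged replicate 1 and spermidine replicate 1 together the rise was 0.63 (edgeR adjusted p = 0.0285). Against young oocytes the spermidine group was at a log2 fold change of -0.40 (SE 0.12), which edgeR did not pass (adjusted p = 0.0769) and DESeq2 did (adjusted p = 0.00920). In the authors' deposited table the log2 ratio of Slc25a17 was -0.95 for aged against young with a q of 6e-09, and 0.50 for spermidine against aged with a q of 0.0312.

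The promoter of Slc25a17 is shown because it belongs to the most abundant carrier gene that changed; it covers chr15:81360813-81361015 in GRCm38.p6 (RefSeq), read 5′ to 3′ along the gene's strand up to its annotated start. Capitals mark a GC box (GGGCGG on either strand) and a CCAAT box (CCAAT on either strand).
Slc25a17: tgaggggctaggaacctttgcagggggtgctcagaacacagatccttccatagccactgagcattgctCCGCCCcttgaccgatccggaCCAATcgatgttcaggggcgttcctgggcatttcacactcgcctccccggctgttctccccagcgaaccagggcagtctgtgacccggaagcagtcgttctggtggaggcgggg
The window of 203 bases held 1 GC box and 1 CCAAT box, and neither CACGTG nor TATAAA. Promoter windows of 300 bases were matched for 35 of the 45 members, in 45 windows, and GGGCGG was found in 82.2% of these, against 35.7% of all 32851 windows, which include those of noncoding genes. CCAAT was in 46.7% of the members' windows against 37.4% of all, CACGTG in 17.8% against 7.15%, the core motif of NRF1 in 4.44% against 4.60% and TATAAA in 4.44% against 13.6%. A match of letters is a description of the sequence and was not tied to any measurement here.

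Slc25a36, a carrier of pyrimidine nucleotides that supplies the matrix for mitochondrial DNA and RNA synthesis, was highest in the spermidine group. The gene (Gene ID 192287) lies on the minus strand of chromosome 9, from 97074961 to 97111157 in GRCm38, with no exon shared with another gene. Young libraries stood at 6.13, 4.56 and 8.85 CPM, aged libraries at 5.11, 4.09 and 5.43 CPM, and spermidine libraries at 10.02, 14.2, 12.3 and 14.5 CPM. Every spermidine library was above every library of the other groups, and the young and aged libraries overlapped. The level was 2.61-fold higher in spermidine than in aged oocytes (log2 fold change 1.39, SE 0.24, edgeR adjusted p = 0.0121). The call was lost without aged replicate 2 (adjusted p = 0.0612) and kept without each of the other 9 libraries and in 9 of 9 other settings.

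Against young oocytes Slc25a36 was 1.96-fold higher in the spermidine group (log2 fold change 0.97, SE 0.23, edgeR adjusted p = 0.0321). Leaving out young replicate 1 or 2, or spermidine replicate 2, 3 or 4, ended this call, with adjusted p up to 0.160 and log2 fold changes of 0.77 to 1.20. From young to aged oocytes the value was -0.41 (SE 0.25, edgeR adjusted p = 0.257), which did not pass. The authors' deposited table gave a log2 ratio of 1.37 for spermidine against aged, with a q of 3.62e-07.

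The promoter of Slc25a36 is shown as that of the only carrier that passed in both comparisons of the spermidine group under the main test; it covers chr9:97111158-97111291 in GRCm38.p6. Capitals mark an E-box (CACGTG) and a CCAAT box, and GGGCGG and TATAAA are not among these 134 bases.
Slc25a36: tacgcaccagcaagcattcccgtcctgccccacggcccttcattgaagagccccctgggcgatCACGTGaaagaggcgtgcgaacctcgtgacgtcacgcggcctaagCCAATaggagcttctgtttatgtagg
It holds 11 CpG dinucleotides in 134 bases at 59.0% GC, and the longer Slc25a17 window holds 11 in 203 bases at 61.6% GC.

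Other carriers of nucleotides and nucleotide cofactors did not pass the test and showed no common direction. Slc25a33, the other pyrimidine nucleotide carrier, stood at 1.51 to 2.86 CPM in young, 0.934 to 1.91 in aged and 2.03 to 2.35 in spermidine oocytes. Its log2 fold change was -0.77 (SE 0.30, edgeR adjusted p = 0.0934) for aged against young and 0.71 (SE 0.28, edgeR adjusted p = 0.149) for spermidine against aged, so neither passed. An antisense gene shares 14.9% of its exon bases, and strand use in the counting is not given, so reads of the 2 genes cannot be told apart. Slc25a51, the mitochondrial NAD carrier, was the second most abundant of this class per length, with 19.3 to 21.7 CPM in young, 20.9 to 26.6 in aged and 12.4 to 22.1 in spermidine oocytes. Its value for spermidine against aged was -0.49 (SE 0.20, edgeR adjusted p = 0.159). Slc25a16, linked to coenzyme A uptake, had log2 fold changes of 0.04 and 0.34 in the same 2 comparisons. In all, 5 of the 6 genes of this class were tested.

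**Figure D3:**
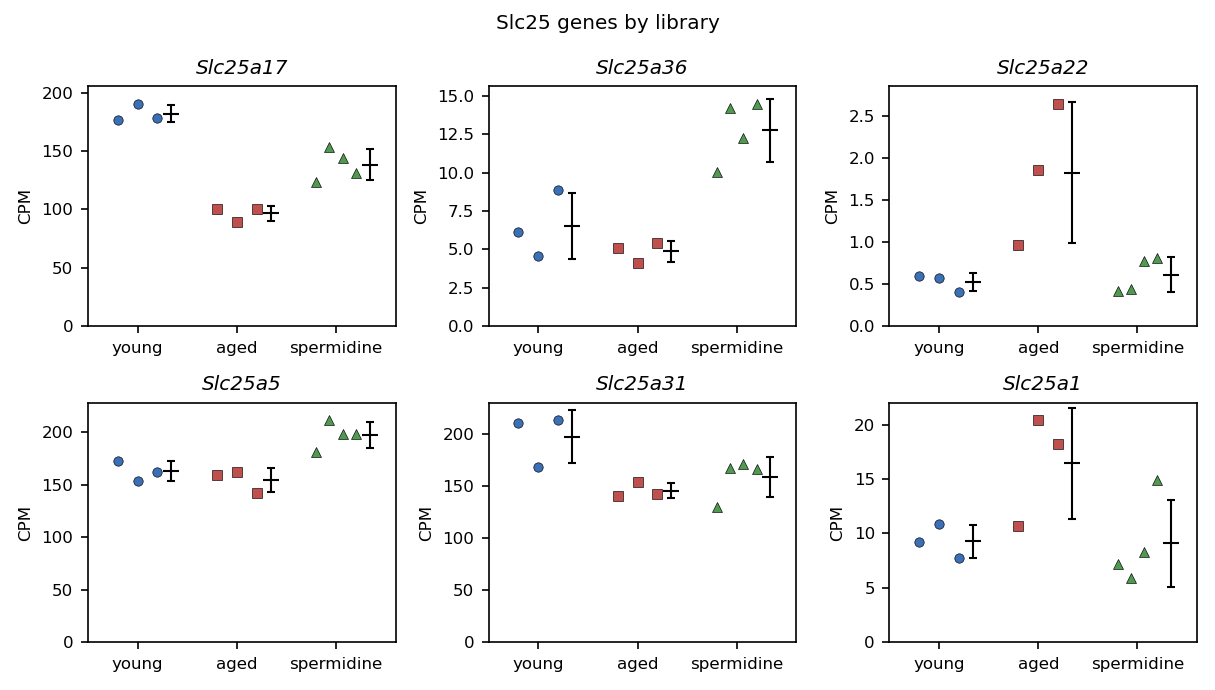
CPM of 6 Slc25 genes in each library, with the group mean and bars of 1 SD (n = 3 young, 3 aged, 4 spermidine). Slc25a17 shows 3 separate groups, Slc25a36 has all 4 spermidine libraries on top, and Slc25a22 has the 3 aged libraries on top with a wide spread from 0.968 to 2.64 CPM.

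The ADP/ATP carriers, which exchange cytosolic ADP for ATP made in the matrix, were the most abundant class, and none of the 3 passed edgeR's test under the main settings in a comparison. Slc25a5 stood at 173, 154 and 162 CPM in young, 160, 162 and 142 in aged and 181, 211, 199 and 198 in spermidine oocytes. All spermidine libraries were above all others, and the log2 fold change was 0.35 (SE 0.12, edgeR adjusted p = 0.0912) against aged and 0.27 (SE 0.12, edgeR adjusted p = 0.208) against young oocytes. DESeq2 passed the first of these (adjusted p = 0.0403), and edgeR passed the second with total count scaling (adjusted p = 0.0388) and with the length and GC correction (adjusted p = 0.0474). With that correction the first was 0.075 (edgeR adjusted p = 0.713), and the value for aged against young was 0.31 in place of -0.08, neither of which passed. Slc25a31, the germ-cell form, stood at 211, 168 and 213 CPM in young, 140, 154 and 142 in aged and 130, 167, 171 and 166 in spermidine oocytes. Its young libraries did not overlap with the aged ones, and its log2 fold change for aged against young was -0.44 (SE 0.15, edgeR adjusted p = 0.0573), or -0.17 with the length and GC correction. DESeq2 passed this comparison of Slc25a31 (adjusted p = 0.0244). EdgeR passed it without spermidine replicate 1 (adjusted p = 0.0276) and without both aged replicate 1 and spermidine replicate 1 (adjusted p = 0.0398). It also passed without young replicate 2, the lowest young library. The authors' deposited table gave it a log2 ratio of -0.48 with a q of 0.0417. Slc25a4, the ANT1 form of heart and muscle, stood at 24.4 to 28.7, 20.2 to 35.1 and 26.2 to 34.4 CPM in the 3 groups.

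The summed per-length level of the ADP/ATP carriers was 238 ± 17.8 CPM per kb in young (SD, n = 3), 208 ± 11.8 in aged (SD, n = 3) and 249.7 ± 19.7 in spermidine oocytes (SD, n = 4). Within that sum, Slc25a5 made up 55.3% ± 1.64 in young, 59.8% ± 2.62 in aged and 63.8% ± 1.88 in spermidine oocytes. Slc25a31 made up 38.8% ± 2.48, 32.8% ± 0.781 and 29.8% ± 1.48 in the same order. By library, the Slc25a31 share was 36.2% to 41.1% in young, 32.2% to 33.7% in aged and 27.7% to 31.1% in spermidine oocytes, so the 3 groups did not overlap. These shares were not fixed as a comparison and carry no test.

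**Figure D4:**
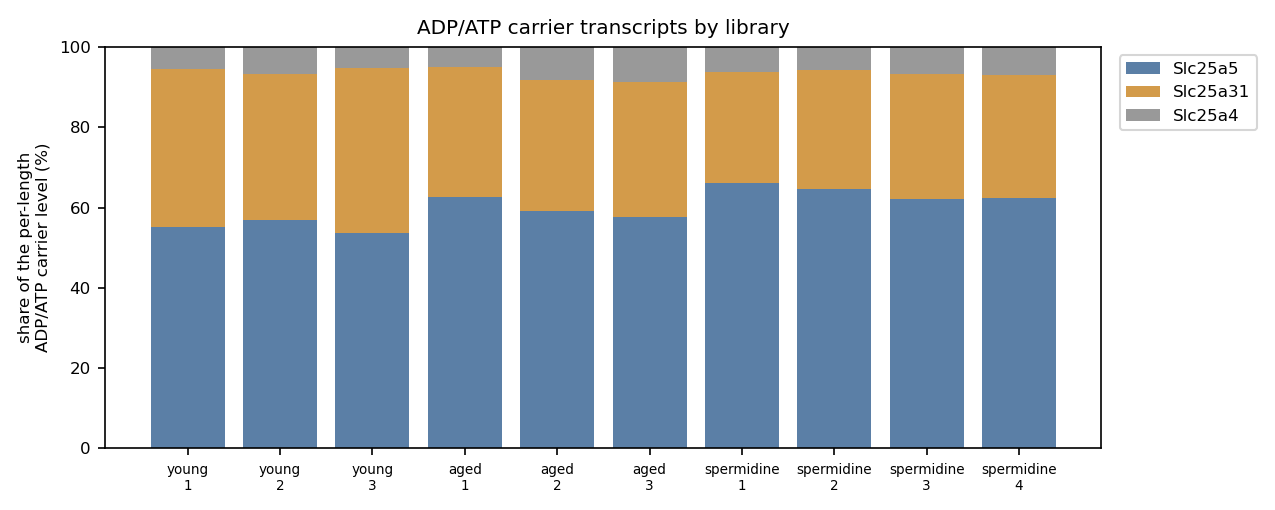
Share of Slc25a5, Slc25a31 and Slc25a4 in the summed per-length level of the 3 ADP/ATP carriers, one stacked bar per library. The Slc25a31 share runs from 36.2% to 41.1% in young libraries and from 27.7% to 31.1% in spermidine libraries.

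The ATP-Mg/phosphate carriers were scarce, and 0 of the 3 measured genes passed, also by DESeq2. At an unadjusted p under 0.05, which 19.4% of all tested genes passed as higher and 15.3% as lower for aged against young, 12% and 12.3% for spermidine against aged and 11.9% and 8.1% for spermidine against young, 0 differed between young and aged or between aged and spermidine oocytes, and 1 was higher in spermidine than in young oocytes. Slc25a25 stood at 0.267 to 0.553 CPM in young, 0.624 to 1.099 in aged and 0.571 to 1.04 in spermidine oocytes, and the aged and spermidine libraries all lay above the young ones. Its log2 fold change was 0.84 (SE 0.39, edgeR adjusted p = 0.145) for aged against young. Slc25a24 stood at 0.415 to 0.445, 0.404 to 0.667 and 0.345 to 0.616 CPM in the 3 groups, which overlapped.

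Slc25a22 was the only amino acid carrier that passed, and it did so at a low level. It encodes a mitochondrial glutamate carrier, and the gene (Gene ID 68267) lies on the minus strand of chromosome 7, from 141429744 to 141437892 in GRCm38, with no exon shared with another gene. Young libraries stood at 0.599, 0.574 and 0.400 CPM, aged libraries at 0.968, 1.86 and 2.64 CPM, and spermidine libraries at 0.421, 0.435, 0.769 and 0.805 CPM. These values rest on 254 counts over the 10 libraries. Every aged library was above every other library, and the young and spermidine libraries overlapped. The level was 3.43-fold higher in aged than in young oocytes (log2 fold change 1.78, SE 0.41, edgeR adjusted p = 0.0139), which no longer passed when young replicate 1 or 3 or aged replicate 3 was left out (adjusted p up to 0.0669). It was 3.01-fold lower in spermidine than in aged oocytes (log2 fold change -1.59, SE 0.37, edgeR adjusted p = 0.0357), a call kept without aged replicate 1 or spermidine replicate 4 and lost without each of the other 8 libraries (adjusted p up to 0.120). With only the aged and spermidine libraries in the fit it did not pass either (edgeR adjusted p = 0.0803). The spermidine group differed from young oocytes by 0.19 (SE 0.42, edgeR adjusted p = 0.833).

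The promoter of Slc25a22 is shown for contrast with the windows of Slc25a17 and Slc25a36; it covers chr7:141437893-141438124 in GRCm38.p6 and has no capitals because none of the 5 motifs was found in it.
Slc25a22: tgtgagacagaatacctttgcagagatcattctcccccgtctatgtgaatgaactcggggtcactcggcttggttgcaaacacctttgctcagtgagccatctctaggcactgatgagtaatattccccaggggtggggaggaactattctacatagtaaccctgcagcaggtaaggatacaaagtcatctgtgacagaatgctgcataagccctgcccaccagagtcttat
It has 3 CpG dinucleotides in 232 bases and 48.7% GC. That these letters are missing here says nothing about other start sites of the gene.

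Of the 9 amino acid carriers, 6 were tested, and in aged against young oocytes 5 of these 6 had log2 fold changes above 0, with a median of 0.49. Among all 12315 tested genes, 6898 were above 0, with a median of 0.10. Slc25a15, the ornithine carrier of the urea cycle and the most abundant of the class per length, stood at 47.1 to 52.1 CPM in young, 43.4 to 61.9 in aged and 49.0 to 61.5 in spermidine oocytes, and overlapped in every comparison. Slc25a38, the glycine carrier needed for haem synthesis, stood at 11.7 to 18.5, 9.58 to 17.4 and 10.8 to 20.4 CPM and overlapped likewise. The aspartate-glutamate carriers of the malate-aspartate shuttle, Slc25a12 and Slc25a13, had values of 0.61 (SE 0.22, edgeR adjusted p = 0.0752) and 0.44 (SE 0.18, edgeR adjusted p = 0.0992) for aged against young, and the groups did not overlap for either gene. Slc25a44, a carrier of branched-chain amino acids, had a value of 0.54 (SE 0.19), which missed the threshold in edgeR (adjusted p = 0.0664) and passed in DESeq2. It was 7.34 to 10.5 CPM in young, 11.4 to 13.9 in aged and 7.94 to 10.6 in spermidine oocytes, with the aged libraries above the others. These 3 genes had values of -0.09, -0.21 and -0.43 for spermidine against aged oocytes, and none passed.

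Slc25a3, which brings phosphate into the matrix for ATP synthesis, stood at 54.5, 51.4 and 54.4 CPM in young, 28.3, 50.7 and 41.1 in aged and 38.95, 50.4, 55.8 and 56.6 in spermidine oocytes. The aged libraries lay below the young ones but were widely spread, with aged replicate 1, the library with the strongest relation to transcript length, lowest. The log2 fold change for aged against young was -0.42 (SE 0.21, edgeR adjusted p = 0.172) and did not pass. For spermidine against aged it was 0.33 (SE 0.19, edgeR adjusted p = 0.318).

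Among carriers of citrate, dicarboxylates and oxo acids, 0 of 4 passed in any comparison in edgeR or DESeq2. At an unadjusted p under 0.05, for which the shares of all genes are given above, 2 were higher and 1 was lower in aged than in young oocytes, 1 was higher and 1 lower in spermidine than in aged oocytes, and 1 was higher in spermidine than in young oocytes. Slc25a1, the citrate carrier that exports acetyl units for lipid synthesis, stood at 9.21, 10.8 and 7.78 CPM in young, 10.7, 20.4 and 18.2 in aged and 7.22, 5.91, 8.30 and 14.9 in spermidine oocytes. Aged replicate 1 was near the young libraries while the other aged libraries were the highest of all 10. Its log2 fold change was 0.82 (SE 0.33, edgeR adjusted p = 0.0999) for aged against young and -0.85 (SE 0.30, edgeR adjusted p = 0.113) for spermidine against aged. The first passed in 4 of 19 settings. Among them were those without aged replicate 1 (1.012, edgeR adjusted p = 0.0431) and without both aged replicate 1 and spermidine replicate 1 (1.005, edgeR adjusted p = 0.0415). The second passed in 3 of 19, among them the length and GC correction (-0.79, edgeR adjusted p = 0.0403). The authors' deposited table gave Slc25a1 a log2 ratio of 0.78 with a q of 0.0449 for aged against young.

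Slc25a11, the oxoglutarate-malate carrier that completes the malate-aspartate shuttle, stood at 8.11 to 9.77 CPM in young, 7.21 to 14.0 in aged and 8.03 to 12.4 in spermidine oocytes. The groups overlapped, and Rnf167 shares 8.92% of its exon bases. Slc25a10, the dicarboxylate carrier, was scarce at 0.356 to 0.467 CPM in young, 0.634 to 0.834 in aged and 0.632 to 0.972 in spermidine oocytes. The libraries of both other groups lay above the young ones, with values of 0.81 (edgeR adjusted p = 0.0951) and 0.77 (edgeR adjusted p = 0.179) that did not pass. Slc25a21, which carries oxodicarboxylates, had the lowest value of a carrier in aged against young oocytes, -1.23 (SE 0.47, edgeR adjusted p = 0.0879), on 120 counts in all.

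Carriers of vitamins, S-adenosylmethionine and glutathione included 5 tested genes, and 0 passed with edgeR. At an unadjusted p under 0.05, 2 were higher and 1 lower in aged than in young oocytes, 1 was higher and 1 lower in spermidine than in aged oocytes, and 0 differed between spermidine and young oocytes. DESeq2 passed 1, Slc25a26, for spermidine against aged, and none in the other comparisons. Slc25a26, which brings the methyl donor S-adenosylmethionine into mitochondria, stood at 48.9, 60.1 and 42.1 CPM in young, 25.9, 42.6 and 37.3 in aged and 40.2, 61.4, 55.7 and 66.1 in spermidine oocytes. Aged replicate 1 and spermidine replicate 1 were the lowest of their groups. The log2 fold change for spermidine against aged was 0.66 (SE 0.21, edgeR adjusted p = 0.0864). It passed without spermidine replicate 1 (0.79, edgeR adjusted p = 0.0482) and without both of these libraries (0.64, edgeR adjusted p = 0.0420).

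In the same class, 3 further genes, the glutathione carriers Slc25a39 and Slc25a40 and the folate carrier Slc25a32, had values of 0.52, 0.52 and 0.46 for aged against young. Their values were -0.40, -0.32 and -0.45 for spermidine against aged oocytes, and none passed under the main settings. Slc25a32 passed in both comparisons without aged replicate 1, with or without spermidine replicate 1, and Slc25a40 passed for aged against young with the length and GC correction.

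Iron enters mitochondria through the mitoferrins, of which only Slc25a28 (mitoferrin 2) was tested. It stood at 0.968, 0.754 and 0.845 CPM in young, 0.701, 0.644 and 0.477 in aged and 1.05, 0.834, 1.26 and 0.805 in spermidine oocytes. The aged libraries were the lowest 3 of the 10, with a log2 fold change of -0.48 (SE 0.30, edgeR adjusted p = 0.272) against young, and 0.69 (SE 0.28, edgeR adjusted p = 0.155) for spermidine against aged. Neither passed.

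Slc25a20, the carnitine-acylcarnitine carrier that admits fatty acids for oxidation, stood at 3.09, 3.20 and 3.42 CPM in young, 2.47, 3.45 and 3.16 in aged and 2.08, 2.14, 2.92 and 2.91 in spermidine oocytes. The spermidine libraries all lay below the young ones, with a log2 fold change of -0.37 (SE 0.20, edgeR adjusted p = 0.338) that did not pass. For aged against young the value was -0.10 (SE 0.22, edgeR adjusted p = 0.766).

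Of the uncoupling protein relatives, Slc25a14 stood at 37.4 to 41.6 CPM in young, 26.6 to 33.0 in aged and 29.7 to 41.6 in spermidine oocytes. Its value for aged against young was -0.38 (SE 0.16, edgeR adjusted p = 0.116), with no overlap between the groups. Slc25a30 was lower per length, and its values of -0.15, -0.58 and -0.74 in the 3 comparisons did not pass. Slc25a46, which takes part in outer membrane dynamics rather than transport, was at 3.91 to 4.54, 3.37 to 4.36 and 3.36 to 4.45 CPM in the 3 groups. Among genes given no substrate here, Slc25a48 stood at 37.4 to 54.3 CPM in young, 32.4 to 67.5 in aged and 27.8 to 45.0 in spermidine oocytes. Slc25a35 stood at 10.8 to 16.01, 14.7 to 17.5 and 12.2 to 17.6 CPM, and 31.3% of its exon bases are shared with Rangrf, so its counts are uncertain. None of these 5 genes passed.

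Among genes that work with the carriers, Timm10, Lyrm4 and Mcu had the largest fold changes of those that passed. Of the 10 genes for carrier import by TIM22 and the small Tim chaperones, 0 rose and 1 fell in aged against young oocytes, and 1 rose and 1 fell in spermidine against young oocytes. Counts of partner genes are to be read against the shares of all tested genes, 9.71% higher and 8.06% lower for aged against young, 2.42% and 2.44% for spermidine against aged and 3.44% and 1.92% for spermidine against young. For spermidine against aged oocytes 0 of 10 passed in edgeR, while 2 were higher and 1 lower at an unadjusted p under 0.05 and DESeq2 passed 2 higher. Timm10, a chaperone that guides carriers to TIM22, stood at 78.3, 62.5 and 73.4 CPM in young, 23.99, 22.02 and 26.02 in aged and 25.9, 26.8, 32.4 and 30.1 in spermidine oocytes. All aged and spermidine libraries lay below the young ones, with log2 fold changes of -1.57 (SE 0.15, edgeR adjusted p = 9.23e-05) and -1.31 (SE 0.14, edgeR adjusted p = 0.000209), and both calls were kept without each library in turn. Timm9, its usual partner in the chaperone complex, had values of 0.28 and 0.35 in these comparisons and did not pass. Timm8a1 was higher in spermidine than in young oocytes by 0.60 (SE 0.16, edgeR adjusted p = 0.0471), a call kept without 2 of the 10 libraries and lost without each of the other 8 (adjusted p up to 0.217). It was kept in 6 of 9 other settings and lost with RLE scaling, no filter and only the compared groups.

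Of 18 tested genes for other mitochondrial transporters and channels, 5 fell and 0 rose in aged against young oocytes, where 8.06% of all tested genes fell and 9.71% rose. Smdt1, the small essential subunit of the calcium uniporter, fell by 1.05 on the log2 scale (SE 0.20, edgeR adjusted p = 0.00584), and Pheta2 shares 16.6% of its exon bases. Sfxn4, a sideroflexin, fell by 0.62 (SE 0.14, edgeR adjusted p = 0.0120), Mpc2, a subunit of the pyruvate carrier, by 0.59 (SE 0.14, edgeR adjusted p = 0.0144) and Vdac3, an outer membrane channel, by 0.46 (SE 0.13, edgeR adjusted p = 0.0338). The remaining gene was Mpc1, the other subunit of the pyruvate carrier, which fell by 0.50 (SE 0.15, edgeR adjusted p = 0.0350). Mpc1 lies outside the rule for named genes and was named after its values were seen, and 4930506C21Rik shares 23.1% of its exon bases. Whether the Mpc1 call holds in the other settings or with single libraries left out is not given here. The calls for Sfxn4, Mpc2 and Vdac3 were lost with total count scaling and with the length and GC correction. The Mpc2 call was also lost without young replicate 1 or aged replicate 2. The Vdac3 call was also lost with no filter and without each young or aged library other than young replicate 2.

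In spermidine against aged oocytes Sfxn4 rose by 0.56 (SE 0.13, edgeR adjusted p = 0.0367). Mpc2 rose by 0.50 (SE 0.13, edgeR adjusted p = 0.0481). With single libraries left out, the Sfxn4 call was kept in 2 of 10 fits and the Mpc2 call in 1. Of 9 other settings, Sfxn4 passed in 6 and Mpc2 in 2. Sfxn4 did not pass with total count scaling, only the compared groups or the length and GC correction (edgeR adjusted p up to 0.205). Mpc2 passed only with at least 10 CPM in 3 libraries (edgeR adjusted p = 0.0340) and with DESeq2 (adjusted p = 0.00443). Its edgeR adjusted p reached 0.188 with the length and GC correction. Dropping replicate 1 from both groups gave Mpc2 an edgeR adjusted p of 0.0715. Mcu, the pore of the calcium uniporter, stood at 85.5, 73.4 and 75.9 CPM in young, 90.6, 104.5 and 87.6 in aged and 39.8, 35.2, 42.2 and 58.4 in spermidine oocytes. The spermidine libraries were all below the others. Mcu fell by 1.10 against aged (SE 0.17, edgeR adjusted p = 0.00734) and by 0.83 against young oocytes (SE 0.17, edgeR adjusted p = 0.0124), and the second call was lost without young replicate 1 (adjusted p = 0.0668).

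**Figure D5:**
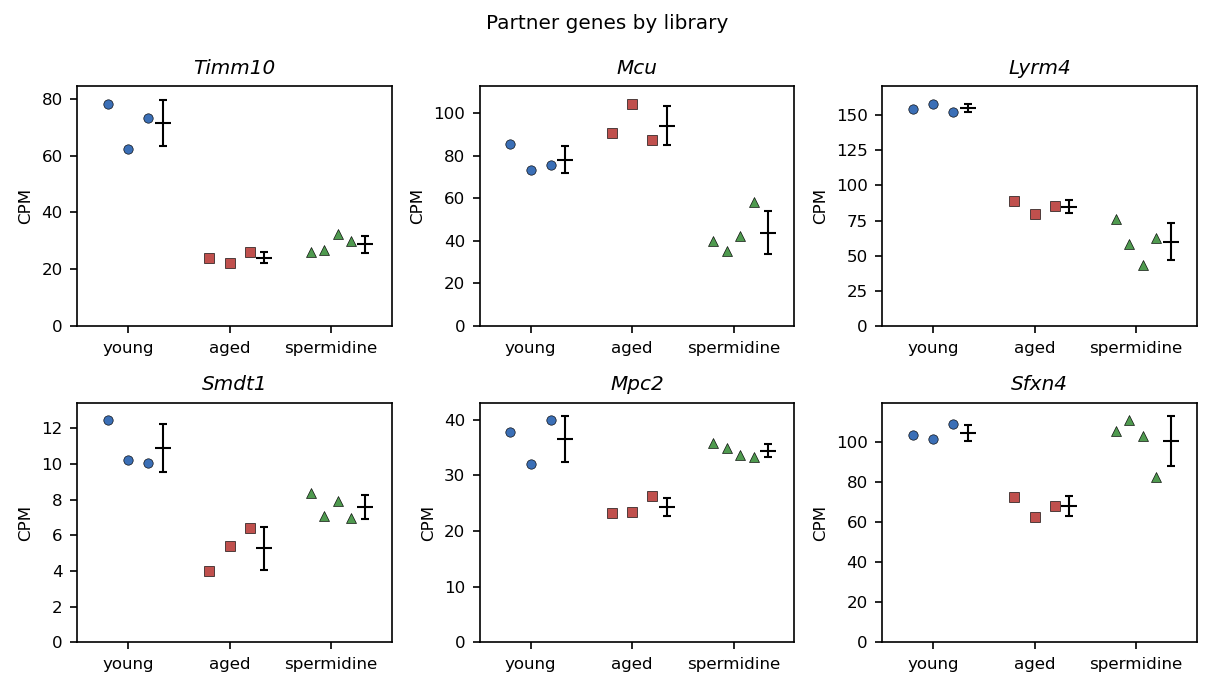
CPM of 6 genes that work beside the carriers in each library, with the group mean and bars of 1 SD (n = 3 young, 3 aged, 4 spermidine). Timm10 is low in the aged and spermidine libraries, Mcu is low only in the spermidine libraries (35.2 to 58.4 CPM), and Mpc2 and Sfxn4 are lowest in the aged libraries.

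In the carnitine system, 2 of 4 tested genes rose in aged against young oocytes, where 9.71% of all tested genes rose. Slc22a5, the plasma membrane carnitine importer, rose by 0.88 (SE 0.20, edgeR adjusted p = 0.0123), a call lost without young replicate 3 (adjusted p = 0.0524). Crat, carnitine acetyltransferase, rose by 0.86 (SE 0.26, edgeR adjusted p = 0.0393), a call kept without 3 of the 10 libraries and in 3 of 8 other settings. The Crat call was lost without aged replicate 1 (edgeR adjusted p = 0.129) and without both aged replicate 1 and spermidine replicate 1 (edgeR adjusted p = 0.113). It was also lost with no filter, only the compared groups, the replicate block and the length and GC correction (edgeR adjusted p up to 0.159). Of the malate-aspartate shuttle enzymes, 1 of 4 passed: Got2, the mitochondrial aspartate aminotransferase, rose by 0.69 from young to aged (SE 0.21, edgeR adjusted p = 0.0415). The Got2 call was kept without 4 of the 10 libraries and in 3 of 9 other settings. It was lost without aged replicate 1 (edgeR adjusted p = 0.112) and without both aged replicate 1 and spermidine replicate 1 (edgeR adjusted p = 0.0786). It was also lost with total count scaling, no filter, only the compared groups, the replicate block and the length and GC correction (edgeR adjusted p up to 0.145).

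Of 11 genes for iron-sulfur cluster and haem synthesis, 1 fell in aged and in spermidine against young oocytes. This was Lyrm4, a partner of the cysteine desulfurase, at 154, 158 and 152 CPM in young, 89.1, 79.7 and 85.3 in aged and 75.7, 58.3, 43.6 and 62.3 in spermidine oocytes. The 3 groups did not overlap, and Lyrm4 fell by 0.87 (SE 0.18, edgeR adjusted p = 0.00729) and by 1.37 (SE 0.16, edgeR adjusted p = 0.000445). The first call was lost under total count scaling (adjusted p = 0.0572).

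Of 6 tested mitochondrial nucleotide kinases, Ak4 rose by 0.73 (SE 0.18, edgeR adjusted p = 0.0172) in aged against young oocytes, while Dguok, the deoxyguanosine kinase, fell by 0.61 (SE 0.14, edgeR adjusted p = 0.0131) and Nme6 by 0.69 (SE 0.17, edgeR adjusted p = 0.0160). The Ak4 call was lost without any of the young libraries or aged replicate 1, and the Dguok and Nme6 calls were lost with total count scaling and with the length and GC correction. The Nme6 call was also lost without aged replicate 2 (edgeR adjusted p = 0.0556). The carrier relatives with other symbols, Ucp2, Mtch1 and Mtch2, gave 0 calls of 3 in each comparison, also at an unadjusted p under 0.05 and with DESeq2.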

How the data were processed

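RNA of 10 oocyte libraries was amplified by SMART-seq2 from oligo dT primers and sequenced on DNBseq, per the labels' protocols. The deposited table holds expected counts per gene, of which 15.9% to 16.7% per library are not whole. RSEM 1.3.1, Bowtie2 2.3.4.3, the mm9 build and DESeq2 1.4.5 are listed, without roles, per the submitters' processing notes. The authors' deposited log2 ratios and q-values of 2 comparisons were only copied. Strand use in counting is not given in the sources used here.

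Counts were rounded, filtered with filterByExpr and scaled by TMM. 1 robust quasi-likelihood fit of edgeR 4.0.16 (R 4.3.3) over all 10 libraries gave 3 contrasts, with Benjamini-Hochberg adjustment over 12315 genes and a threshold of 0.05. CPM is relative to the TMM-scaled library size over tested genes. SE was derived from the F statistic. Lengths, gene positions and exon overlaps come from GENCODE M21 (GRCm38), and promoters from RefSeq. Both differ from the build of the files, so no file coordinate was used. The pipeline was tested on simulated counts.

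The rule for named genes covers every carrier that passed in a comparison and the 2 members of each substrate class with the highest per-length level. Of each partner list it covers up to 4 passing genes of smallest p. Tested carriers outside the rule also appear with values: Slc25a4, Slc25a10, Slc25a12, Slc25a13, Slc25a16, Slc25a21, Slc25a23, Slc25a32, Slc25a33, Slc25a39, Slc25a40 and Slc25a44. The same holds for the partner genes Timm9 and Mpc1. The rule did not fix these choices in advance. 1 carrier that this rule names is counted but not reported here. The members and lists were chosen with earlier results of these data known. Alternatives were RLE and total count scaling, no filter, at least 10 CPM in 3 libraries, DESeq2 1.42.0, only the compared groups, a replicate block, a length and GC correction, and leaving out libraries.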

Additional observations from a re-analysis of the deposited data

Results flagged for a closer look

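Slc25a31 stood at 130 CPM in spermidine replicate 1, while the other 3 spermidine libraries lay between 166 and 171 CPM. The gap to the nearest library was 0.881 of the range of the group, more than Dixon's limit for 4 samples. Of the 35 tested carriers checked in this way 1 met the limit, and chance alone flags about 1 in 20 groups. Without spermidine replicate 1 the comparison of aged with young oocytes passed for Slc25a31, as it did without young replicate 2.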

How the results depend on the processing

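Over all settings, 1186 of 1233 values of the carriers' fold changes kept their direction, where called, and their side of the threshold, 28 lost it, 19 gained it and 0 reversed. For the partner genes these numbers were 685 of 789, 88, 16 and 0. The 2 carriers called for aged against young became 4 with DESeq2 and 5 without aged replicate 1 and spermidine replicate 1, and 1 to 4 with single libraries left out. The 3 called for spermidine against aged became 5 with DESeq2, 1 with only the compared groups, 5 without both libraries, and 0 to 4 with single libraries left out (0 without aged replicate 2). The 1 called for spermidine against young became 2 with total count scaling, with DESeq2 and with the length and GC correction, and 0 to 1 with single libraries left out. The carriers' median log2 fold change ranged from 0.047 to 0.22, from -0.15 to 0.02 and from -0.0046 to 0.15 in these comparisons with single libraries left out, and was 0.29 for spermidine against young with total count scaling. The causes were not tested. The split of all called genes in aged against young was 1196 higher and 993 lower, 1236 and 405 with total count scaling, 1090 and 1110 with RLE factors, and 1204 and 715 with the length and GC correction.

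With the replicate number as a block, 4 carriers were called for aged against young. The labels give the number only. Correlations of same-numbered libraries of different groups ran from -0.28 to 0.41, and those of differently numbered ones from -0.41 to 0.36. These values do not settle whether the numbers mark paired samples. Among carriers that passed, Slc25a22 has the fewest counts, 254 in all, and tested carriers go down to 74 (Slc25a23).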
